A study of Mus musculus with 2 samples.

Results

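Glutathione S-transferases are enzymes that attach the tripeptide glutathione to reactive electrophiles, such as lipid aldehydes and drug metabolites, or use glutathione to reduce them. The cytosolic enzymes fall into classes named with Greek letters (alpha, mu, pi, theta, omega), kappa enzymes are found in mitochondria and peroxisomes, and an unrelated group is bound to membranes. In mouse tissues many alpha and mu genes are known targets of NRF2, the transcription factor of the antioxidant response, and in skin these enzymes belong to the defence of keratinocytes against oxidants and xenobiotics.

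The members described are 10 of the 22383 genes in the deposited table, picked by gene symbol: Gsta1, Gsta2 and Gsta4 of the alpha class, Gstm1, Gstm2 and Gstm5 of the mu class, and Gstk1, Gstp1, Gsto1 and Gstt1. Their values in these same libraries were known when they were picked, so all values are given as a description. RNA came from iHFSC2, a mouse cell line labelled as hair follicle stem cells. The shcircSmad5 line was made with a lentivirus (pwslv-shcircSmad5) whose short hairpin targets circSmad5, a circular product of the Smad5 gene, and the other line with the empty vector. Both lines were put under puromycin from day 4 after infection and were stable at day 15, and neither carries a control hairpin. Each line gave 1 library, so no difference has a replicate check, no test was possible, and a difference between separately selected lines cannot be told apart from an effect of the hairpin.

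The libraries held 38382081 gene counts (shcircSmad5) and 39261010 (empty vector). Smad5 itself had 3413 counts in the shcircSmad5 library and 3109 in the empty vector library. The count takes linear and circular transcripts together and so does not measure the knockdown. Basal keratinocyte markers were abundant in both libraries, with 224675 Krt5 counts in the shcircSmad5 library and 206538 in the empty vector library. The hair follicle stem cell markers checked were mixed. Sox9 had 5301 counts in the shcircSmad5 library and 8829 in the empty vector library, Nfatc1 2077 in the shcircSmad5 library and 2300 in the empty vector library, and Tcf7l1 498 in the shcircSmad5 library and 483 in the empty vector library. Krt15 had 79 counts in the shcircSmad5 library and 253 in the empty vector library, while Lhx2 had 5 in the shcircSmad5 library and 4 in the empty vector library, and Cd34 had 0 in both. Most markers of other skin cells were scarce. The 4 immune markers in the table summed to 5.76 CPM (counts scaled by TMM to a common library size) in the shcircSmad5 library and 6.69 CPM in the empty vector library, the 9 fibroblast markers to 1.89 CPM in the shcircSmad5 library and 4.48 in the empty vector library, and the 5 endothelial markers to 0.943 CPM in the shcircSmad5 library and 3.96 in the empty vector library. The 3 melanocyte markers summed to 11.7 CPM in the shcircSmad5 library and 22.2 in the empty vector library, and the 7 sebocyte markers, which keratinocytes also express in part, to 1160.0 CPM in the shcircSmad5 library and 1325 in the empty vector library. By the size rule given below, all 3 endothelial markers with at least 20 counts were lower, beside 6.24% of all such genes. Their counts were low: Pecam1 27, Vwf 6 and Kdr 4 in the shcircSmad5 library, and 81, 33 and 33 in the empty vector library. Also lower were the fibroblast marker Pdgfra (62 counts in the shcircSmad5 library and 161 in the empty vector library) and Krt15. The sebocyte marker Scd1 was lower too (1353 in the shcircSmad5 library and 4146 in the empty vector library). The fibroblast genes Col1a1, Dcn, Lum and Dpt and the endothelial gene Cdh5 were at 0 in both libraries. The part of these cells in the results below was not tested. In bulk RNA, fewer cells that express a gene and less of its RNA per cell cannot be told apart.

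Several members are close copies of each other, which bears on how far reads can be assigned to them. On chromosome 9 (GRCm38), Gsta4, Gsta1, Gm3776, Gm10639 and Gsta2 lie side by side. Gm3776 and Gm10639 are protein-coding gene models that are not members and were added after their values were seen. The coding sequence of Gsta1 matched that of Gm3776 at 99.7% of bases, Gsta2 at 97.6% and Gm10639 at 97.0%, but Gsta4 at only 66.3%. The first 60 coding bases of GENCODE M21 transcripts show this, with bases that differ from Gsta1 in capitals.
Gsta1 (chr9:78232240-78232299, plus strand): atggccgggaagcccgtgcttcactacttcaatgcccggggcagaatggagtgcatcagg
Gsta2 (chr9:78341857-78341916, minus strand): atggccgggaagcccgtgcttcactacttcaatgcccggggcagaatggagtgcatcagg
Gm3776 (chr9:78258712-78258771, plus strand): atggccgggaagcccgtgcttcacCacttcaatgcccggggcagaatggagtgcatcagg
Gsta4 (chr9:78198290-78198349, plus strand): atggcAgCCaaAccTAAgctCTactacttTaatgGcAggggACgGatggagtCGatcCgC
Gsta1 and Gsta2 were identical over this stretch, Gm3776 carried the single substitution T25C (counted from 1 at the start codon), and Gsta4 differed at 19 bases.

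In the mu class, whose genes lie together on chromosome 3, Gstm1 and Gstm2 were further apart, with 85.9% of coding bases identical. Capitals mark bases of Gstm2 that differ from Gstm1 in the same first 60 coding bases, 12 in all.
Gstm1 (chr3:108017403-108017426 and chr3:108017740-108017775, minus strand): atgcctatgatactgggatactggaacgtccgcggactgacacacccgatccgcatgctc
Gstm2 (chr3:107986086-107986109 and chr3:107986358-107986393, minus strand): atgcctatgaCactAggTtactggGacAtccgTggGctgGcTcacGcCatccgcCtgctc
How reads that match several places were counted is not given in the sources used here. Of all 100-base windows in Gsta1 transcripts, 80.6% occur exactly in a transcript of another gene, mostly Gm3776. The share was 28.4% for Gsta2, 25.1% for Gstp1 (Gstp2 and the pseudogene Gstp-ps), 5.9% for Gstm1 (Gstm2-ps1, Gm8834 and Gstm3) and 0.4% for Gstm2. For Gsta4, Gstm5, Gstk1, Gsto1 and Gstt1 it was 0.0%. None of the shared 100-base windows of Gstm1 occurs in Gstm2. The single counts of Gsta1 and Gsta2 are therefore uncertain, while those of Gsta4, Gstm2, Gstk1 and Gsto1 rest on sequence that is nearly all their own.

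With no replicates, calls rest on a size rule. It asks for 20 or more counts in either library, a TMM-scaled difference of 2-fold or more in either direction, and an exact 95% counting interval of the ratio that leaves out 1. Ratios are shcircSmad5 over empty vector, and their intervals and those of levels cover counting error only. By this rule 4 members were lower in the shcircSmad5 library (Gsta1, Gsta2, Gsta4 and Gstm1), 2 were higher (Gstm2 and Gstk1), 3 did not pass (Gstm5, Gstp1 and Gsto1) and Gstt1 had too few counts. Of all 13596 genes with at least 20 counts, 6.24% were called lower and 8.43% higher, and of the 11605 protein-coding genes among them 6.38% were lower and 4.61% higher. The members were picked with this contrast known, so nothing is read from their share. Over the 9 members with enough counts the median log2 ratio was -0.36, beside -0.02 over all such genes, and the values ran from -3.75 to 3.47.

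**Figure D1:**
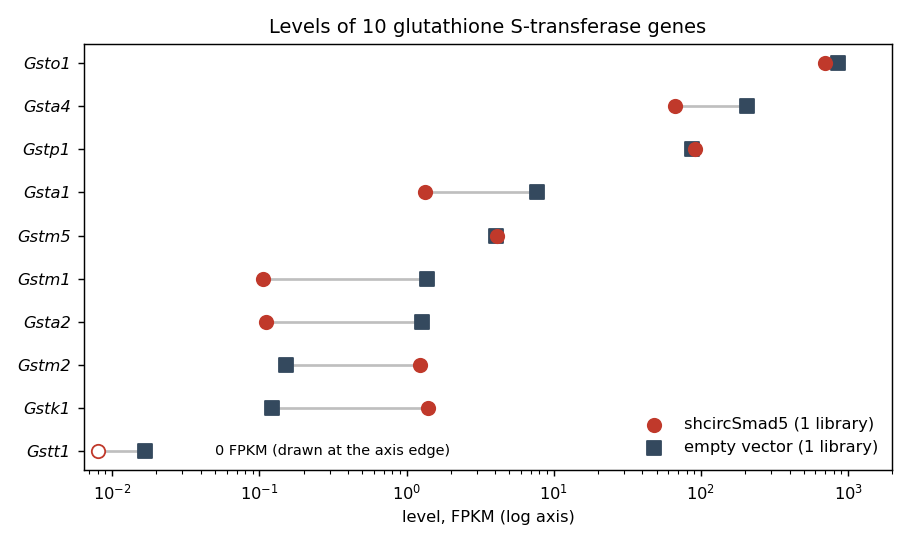
Level of each member in FPKM (horizontal log axis) in the shcircSmad5 library (circles) and the empty vector library (squares), 1 library each, with no error shown; the open circle stands for 0 FPKM. Gsto1, Gsta4 and Gstp1 lie above 60 FPKM in both libraries, and the other 7 members below 10.

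The level per length of exon and library size (FPKM) spread over several orders of magnitude. In the shcircSmad5 library the order was Gsto1, Gstp1, Gsta4, Gstm5, Gstk1, Gsta1, Gstm2, Gsta2, Gstm1 and Gstt1, and in the empty vector library it was Gsto1, Gsta4, Gstp1, Gsta1, Gstm5, Gstm1, Gsta2, Gstm2, Gstk1 and Gstt1. Gsta4 stood below Gstp1 in the shcircSmad5 library and above it in the empty vector library. Lower down, Gstk1, Gsta1 and Gstm2 had overlapping counting intervals in the shcircSmad5 library, from 0.971 to 1.77 FPKM in all, as did those of Gsta2, Gstm1 and Gstt1 at the bottom of the order. In the empty vector library the intervals of Gstm1 and Gsta2 overlapped, as did those of Gstm2, Gstk1 and Gstt1.

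The omega class gene Gsto1 (ENSMUSG00000025068, chromosome 19, 47854970 to 47864790) encodes a glutathione-dependent thiol transferase that also reduces dehydroascorbate. It was by far the most abundant member, with 54327 counts (699.7 FPKM) in the shcircSmad5 library and 68065 counts (857 FPKM) in the empty vector library. By FPKM it ranked 19 among all genes of the shcircSmad5 library and 14 in the empty vector library. Its log2 ratio was -0.36 (95% counting interval -0.37 to -0.34), a difference of -157 FPKM that did not pass the size rule. The interval is narrow because the counts are large, and it says nothing of the spread between cultures.

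Gsto2 (ENSMUSG00000025069), the other omega gene, starts next to Gsto1 in the annotation, 10.6 kb away by lowest coordinate. It had 323 counts (3.58 FPKM) in the shcircSmad5 library and 109 counts (1.18 FPKM) in the empty vector library, 2.90-fold higher (2.33 to 3.64). The neighbouring omega genes thus had ratios of opposite sign. The other 5 genes with at least 20 counts within 500 kb of Gsto1 had a median log2 ratio of 0.13. None passed the size rule, beside 14.7% in either direction over all genes.

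All 3 alpha class members were called lower. Gsta4 (ENSMUSG00000032348, chromosome 9, 78182774 to 78209349) encodes the enzyme best known for conjugating 4-hydroxynonenal, an aldehyde formed when lipids are oxidized. It had 3226 counts (66.4 FPKM) in the shcircSmad5 library and 10153 counts (204 FPKM) in the empty vector library. That is 3.21-fold lower (3.09 to 3.34), and the difference of -138 FPKM was the largest among the members that passed the size rule. The value rests on many counts and on sequence shared with no other annotated transcript.

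Gsta1 (ENSMUSG00000074183, 78230656 to 78242684) encodes a classical inducible alpha enzyme with conjugating and peroxidase activity. It had 49 counts (1.34 FPKM) in the shcircSmad5 library and 290 counts (7.73 FPKM) in the empty vector library, 6.04-fold lower (4.45 to 8.36). Gsta2 (ENSMUSG00000057933, 78331018 to 78355788), its close relative on the opposite strand, had 5 counts (0.111 FPKM) in the shcircSmad5 library and 59 counts (1.28 FPKM) in the empty vector library, 12.0-fold lower (4.88 to 38.5). On the log2(FPKM + 0.1) scale, which understates ratios of low genes, its log2 ratio was -2.71 in place of -3.59. Both genes were well below Gsta4 in each library, and Gsta2 was near the limit of detection in the shcircSmad5 library.

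The nearly identical gene Gm3776 had 0 counts in the shcircSmad5 library and 47 in the empty vector library, at least 12.5-fold lower by its counting interval (16.0-fold with the 0 set to a floor of 3 counts). Gm10639 had 3 counts in the shcircSmad5 library and 12 in the empty vector library, a ratio 4.08-fold lower (1.10 to 22.6), too few for a call. Because these 4 genes can exchange reads, their counts were also summed, giving 57 in the shcircSmad5 library and 408 in the empty vector library, 7.31-fold lower (5.53 to 9.82). The direction of the summed count thus does not depend on how the counted reads were split among the copies. Reads that were left out or counted more than once are not covered by the sum.

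**Figure D2:**
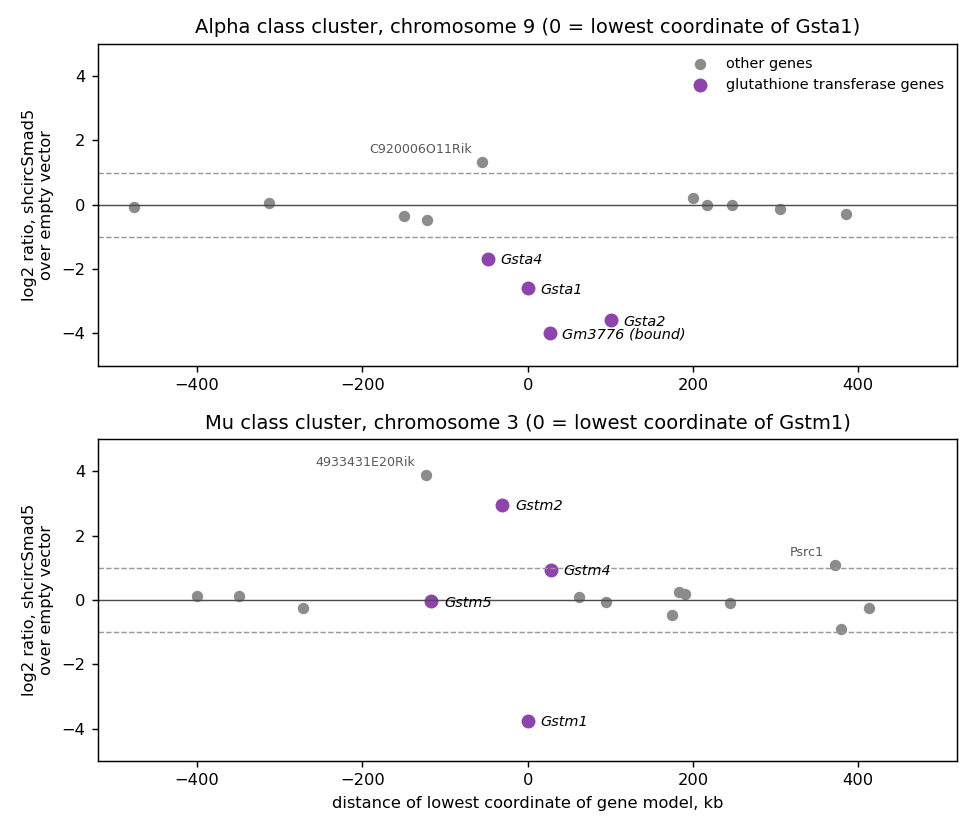
Log2 ratio (shcircSmad5 over empty vector, vertical axis) of genes with at least 20 counts against the distance in kb from the lowest coordinate of Gsta1 (top) or Gstm1 (bottom); purple points are glutathione transferase genes, grey points other genes, dashed lines 2-fold. In the alpha cluster only transferase genes lie below the lower line, with Gm3776 drawn at the floor of 3 counts; in the mu cluster Gstm1 lies below it and Gstm2 above the upper one.

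The genes around the alpha cluster did not share this difference. Within 500 kb of Gsta1, 10 other genes had at least 20 counts, and their median log2 ratio was -0.05. None of them was called lower, and 1 was called higher, C920006O11Rik, with 46 counts in the shcircSmad5 library and 18 in the empty vector library. These calls are near the shares over all genes (6.24% lower and 8.43% higher), so nothing is read from their number. Gclc, the catalytic subunit of the enzyme that limits glutathione synthesis, lies at the edge of this window and had a log2 ratio of -0.08 (10509 counts in the shcircSmad5 library and 10854 in the empty vector library). The median of the 772 genes with enough counts on chromosome 9 was 0.12. Gsta3, an alpha gene on chromosome 1, had 42 counts in the shcircSmad5 library and 92 in the empty vector library, 2.24-fold lower (1.54 to 3.30).

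The start regions of the clustered alpha genes were alike as well. In the RefSeq promoter table (GRCm38.p6), the 250 bases before the start site of Gsta1 matched those of Gm3776 at 89.7% and those of Gsta2 at 70.5% of alignment columns. Gaps made up 26 of the 263 columns for Gm3776 and 22 of the 261 for Gsta2. The annotated start sites are offset, as the stretch in capitals below begins 118 bases before that of Gsta1 and 105 before that of Gm3776. The last 150 bases before each start site are shown because these genes were lower together, with the longest stretch that all 3 share, 29 bases, in capitals.
Gsta1 (chr9:78230519-78230668, plus strand): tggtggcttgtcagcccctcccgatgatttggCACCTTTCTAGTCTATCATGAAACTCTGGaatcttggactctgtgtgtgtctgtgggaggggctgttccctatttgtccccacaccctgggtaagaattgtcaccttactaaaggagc
Gm3776 (chr9:78256979-78257128, plus strand): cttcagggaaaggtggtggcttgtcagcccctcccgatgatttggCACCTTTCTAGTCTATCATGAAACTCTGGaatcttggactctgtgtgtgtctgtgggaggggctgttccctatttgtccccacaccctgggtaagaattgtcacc
Gsta2 (chr9:78347146-78347295, minus strand): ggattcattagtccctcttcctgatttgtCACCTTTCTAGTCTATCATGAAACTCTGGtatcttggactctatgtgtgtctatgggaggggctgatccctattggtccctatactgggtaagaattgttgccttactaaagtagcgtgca
The 29-base stretch occurs in 3 of the 32851 promoters of that table, those of the genes it was taken from. The upstream bases of Gm10639 matched those of Gm3776 at 97.2%. They hold the first 18 bases of the stretch, which occur in 4 promoters. The next base in Gm10639 is C in place of T, and the remaining bases of the stretch are the same. Whether the stretch has a part in the lower counts was not tested.

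Motifs of xenobiotic response factors were counted in the same table, in the 300 bases from 250 before to 50 after each start site, on both strands. The antioxidant response element core TGACNNNGC was found in 1 of the 9 members with an entry, Gstm5, as TGACCACGC, and in 12.4% of all promoters. The xenobiotic response element core GCGTG was found in 5 of the 9 (Gsta1, Gsta2, Gstm1, Gstm5 and Gstp1) and in 32.4% of all promoters. In Gstm5 a match to GCGTG on the opposite strand lies within the match to TGACNNNGC. Gsta4 has no entry in the table. A missing match says only that these letters are not in this window.

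The mu class genes Gstm1 and Gstm2 differed in opposite directions. Both encode enzymes that conjugate aromatic electrophiles. Gstm1 (ENSMUSG00000058135, chromosome 3, 108012255 to 108017973) had 6 counts (0.106 FPKM) in the shcircSmad5 library and 79 counts (1.37 FPKM) in the empty vector library, 13.4-fold lower (5.91 to 37.7; log2 ratio -3.75, or -2.83 on the log2(FPKM + 0.1) scale). Gstm2 (ENSMUSG00000040562, 107981702 to 107986453) had 79 counts (1.23 FPKM) in the shcircSmad5 library and 10 counts (0.152 FPKM) in the empty vector library, 7.74-fold higher (3.99 to 16.8). Each gene was thus near the limit of detection in one library and low in the other. Their summed count was 85 in the shcircSmad5 library and 89 in the empty vector library, a log2 ratio of -0.10 (-0.54 to 0.35).

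Gstm5 (ENSMUSG00000004032, 107895821 to 107898686), a mu gene at the other end of the cluster, had 202 counts (4.12 FPKM) in the shcircSmad5 library and 203 counts (4.05 FPKM) in the empty vector library. Its log2 ratio was -0.04 (-0.33 to 0.25), so a difference beyond 1.25-fold was outside the counting interval, and other scalings put it between -0.17 and 0.04. Of its exonic bases, 13.9% lie under 4933431E20Rik, a noncoding gene on the opposite strand. That gene had 106 counts in the shcircSmad5 library and 7 in the empty vector library, 14.8-fold higher (6.95 to 37.8). The strand setting of the counting is not given in the sources used here, so some reads of this overlap may be assigned to either gene.

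Over the whole mu cluster of 7 genes the summed count was 328 in the shcircSmad5 library and 314 in the empty vector library, a log2 ratio of 0.03 (-0.19 to 0.26). Gstm4 had 41 counts in the shcircSmad5 library and 21 in the empty vector library, 1.91-fold higher (1.10 to 3.41), just short of the size rule. Gstm3 and Gstm7 had 0 counts in both libraries, and Gstm6 had 0 in the shcircSmad5 library and 1 in the empty vector library. Among 13 other genes within 500 kb of Gstm1 the median log2 ratio was 0.10. None was called lower, and the 2 called higher were 4933431E20Rik and Psrc1 (2.13-fold), beside 6.24% lower and 8.43% higher over all genes. The mu cluster was close to even as a summed count, while Gstm1 and Gstm2 within it were not.

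Gstk1 (ENSMUSG00000029864, chromosome 6, 42245935 to 42250447), the kappa class gene, encodes an enzyme of mitochondria and peroxisomes. It had 79 counts (1.40 FPKM) in the shcircSmad5 library and 7 counts (0.121 FPKM) in the empty vector library, 11.1-fold higher (5.12 to 28.4), the highest ratio among the members (log2 ratio 3.47, or 2.76 on the log2(FPKM + 0.1) scale). None of its exonic bases lies under another gene, and none of its windows of 50 bases is shared. Among 7 other genes with at least 20 counts within 500 kb, the median log2 ratio was 0.34, with Clcn1 2.61-fold higher and Tcaf2 5.45-fold lower.

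Gstp1 (ENSMUSG00000060803, chromosome 19, 4035407 to 4037985), the pi class gene and a major transferase of skin keratinocytes, was level between the libraries. It had 5434 counts (91.5 FPKM) in the shcircSmad5 library and 5327 counts (87.6 FPKM) in the empty vector library, a ratio of 1.00 with a log2 interval of -0.06 to 0.05. Its sign has no meaning at this size, since other scalings put the log2 ratio between -0.14 and 0.08. Its copy Gstp2, 98.1% identical in coding sequence, had 10 counts in the shcircSmad5 library and 3 in the empty vector library, and Gstp3 had 4 in the shcircSmad5 library and 1 in the empty vector library. The processed pseudogene Gstp-ps on chromosome 1, named after its values were seen, had 1108 counts in the shcircSmad5 library and 1346 in the empty vector library. With these 3 added, the log2 ratio was -0.06 (-0.11 to -0.01). Of 31 genes within 500 kb of Gstp1, 4 were called higher and none lower, beside 8.43% higher and 6.24% lower over all genes. The 4 were Tmem134 (11.0-fold), Tbc1d10c (6.86-fold), Aldh3b1 (4.41-fold) and A930001C03Rik (3.43-fold).

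Gstt1 (ENSMUSG00000001663, chromosome 10, 75783813 to 75798584), a theta class gene whose enzyme acts on small halogenated molecules, had 0 counts in the shcircSmad5 library and 1 in the empty vector library. At this depth a count of 0 allows a level of up to 0.0512 FPKM (3 counts), so no difference was detectable. The neighbouring theta genes were low. Gstt3 had 24 counts in the shcircSmad5 library and 51 in the empty vector library, 2.17-fold lower (1.31 to 3.69). Gstt2 had 26 counts in the shcircSmad5 library and 12 in the empty vector library, 2.12-fold higher (1.03 to 4.62), and its interval nearly reaches 1. The only other neighbour past the rule was Lrrc75b, 2.36-fold lower (1.28 to 4.55).

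**Figure D3:**
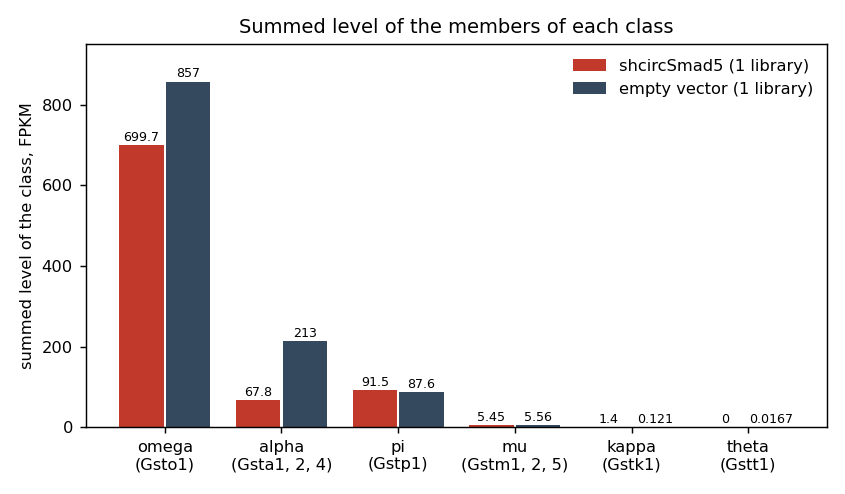
Summed FPKM of the members of each class in the shcircSmad5 library (red, left bar) and the empty vector library (dark, right bar), 1 library each, without error bars. The alpha class stands at 67.8 FPKM in the shcircSmad5 library and 213 in the empty vector library, while the pi and mu classes are nearly level.

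Summed over the 10 members, the level was 866 FPKM in the shcircSmad5 library and 1164 FPKM in the empty vector library. The alpha class made up 7.83% of this sum in the shcircSmad5 library and 18.3% in the empty vector library, and Gsta4 carried nearly all of it. The omega class made up 80.8% in the shcircSmad5 library and 73.6% in the empty vector library, and the pi class 10.6% in the shcircSmad5 library and 7.53% in the empty vector library. The mu, kappa and theta classes together stayed under 1% in each library. The members with the largest ratios, Gstm1, Gsta2, Gstk1 and Gstm2, thus contributed little to the summed RNA level.

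**Figure D4:**
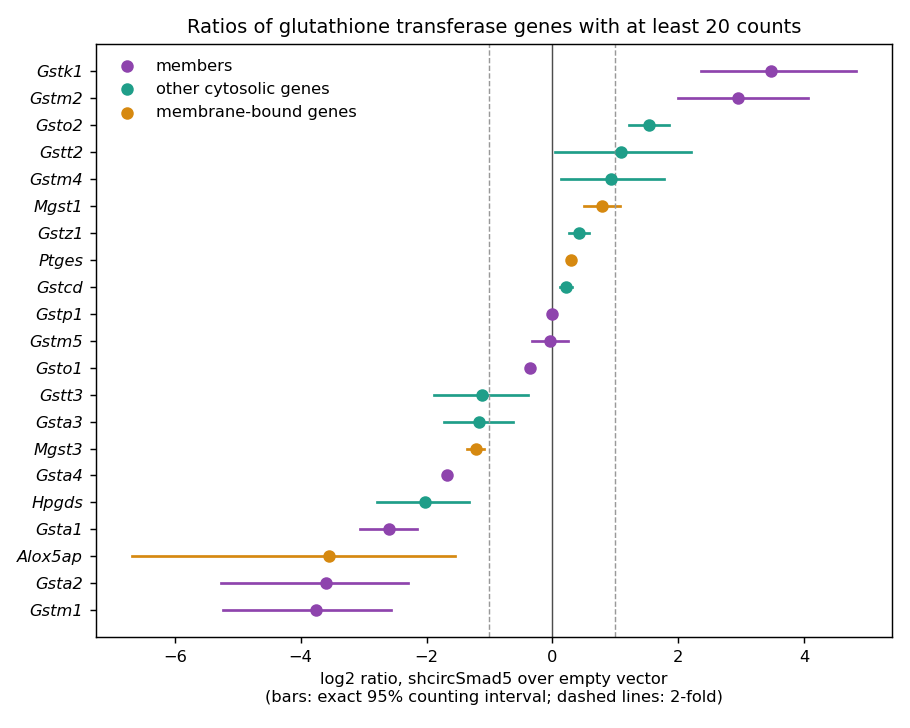
Log2 ratio (shcircSmad5 over empty vector) with its exact 95% counting interval for the members and listed family genes with at least 20 counts (Gm3776, on no list, is not drawn): members in purple, other cytosolic genes in green, membrane-bound genes in orange; dashed lines mark 2-fold. The drawn genes run from Gstm1 at -3.75 to Gstk1 at 3.47, with wide intervals where counts are low.

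The wider family was mixed in direction as well. Of 15 other cytosolic genes listed, 13 were in the table and 8 had at least 20 counts. Of these, Gsta3, Gstt3 and Hpgds were called lower, Gsto2 and Gstt2 higher, and Gstz1, Gstcd and Gstm4 did not pass. Their median log2 ratio was 0.33, opposite in sign to that of the members. By the same rule 6.24% of all genes were lower and 8.43% higher. Hpgds, the sigma class prostaglandin D synthase, had 21 counts in the shcircSmad5 library and 84 in the empty vector library, 4.08-fold lower (2.51 to 6.94). Gstz1, which acts in tyrosine breakdown, had 768 counts in the shcircSmad5 library and 558 in the empty vector library, a log2 ratio of 0.43 (0.27 to 0.59). Gstcd, which carries a transferase-like domain, had a log2 ratio of 0.22 on 1815 counts in the shcircSmad5 library and 1522 in the empty vector library.

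Of 6 membrane-bound genes, 4 had at least 20 counts, 2 were lower and none was higher. The shares over all genes were 6.24% lower and 8.43% higher. Mgst3, a microsomal transferase with peroxidase activity, had 698 counts (16.6 FPKM) in the shcircSmad5 library and 1593 counts (37.0 FPKM) in the empty vector library, 2.33-fold lower (2.13 to 2.55). Alox5ap, which presents arachidonate to 5-lipoxygenase, had 2 counts in the shcircSmad5 library and 23 in the empty vector library, 11.7-fold lower (2.90 to 103). Mgst1, the main microsomal transferase, had 282 counts in the shcircSmad5 library and 160 in the empty vector library, a log2 ratio of 0.79 (0.50 to 1.08) short of the rule. Ptges, the prostaglandin E synthase of this group, was the most abundant of them, with 82.4 FPKM in the shcircSmad5 library and 64.6 FPKM in the empty vector library and a log2 ratio of 0.29.

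**Figure D5:**
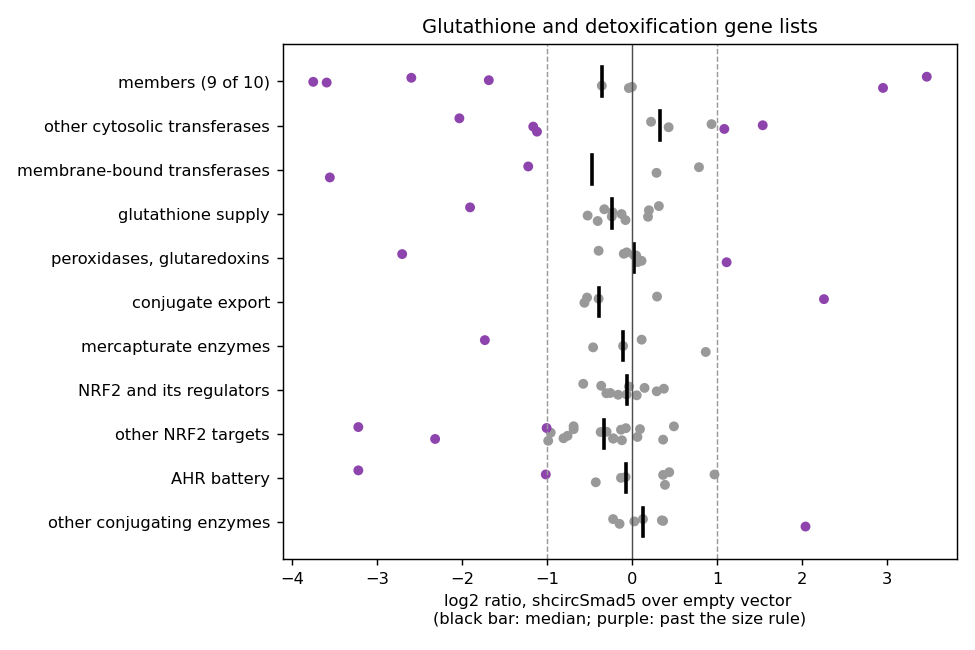
Log2 ratio (shcircSmad5 over empty vector) of each gene with at least 20 counts in 11 lists, 1 point per gene; black bars are medians, purple points passed the size rule and dashed lines mark 2-fold. The members spread from -3.75 to 3.47, while all 11 regulators of NRF2 lie between -0.57 and 0.37.

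Glutathione is supplied by its own synthesis and recycling genes. Of 12 listed genes for its synthesis, cystine uptake and reduction, 11 had enough counts, 1 was lower and none was higher, with a median log2 ratio of -0.23. This is near the share over all genes (6.24% lower and 8.43% higher), so it is not a result about these genes. The exception was Oplah, which recycles oxoproline, on 6 counts in the shcircSmad5 library and 22 in the empty vector library (3.74-fold lower, 1.47 to 11.3). The glutathione reductase gene Gsr had a log2 ratio of -0.52 and the cystine carrier gene Slc7a11 -0.33, and neither passed the rule.

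Among 9 measured peroxidase and glutaredoxin genes (median 0.02), 1 was lower and 1 higher, beside 6.24% lower and 8.43% higher over all genes. Gpx2, an epithelial glutathione peroxidase, had 708 counts (5.73 FPKM) in the shcircSmad5 library and 4515 counts (35.7 FPKM) in the empty vector library, 6.51-fold lower (6.01 to 7.06). Glrx, a glutaredoxin that removes glutathione from proteins, was 2.16-fold higher (1.85 to 2.53). The abundant peroxidases Gpx4 and Gpx1 had log2 ratios of -0.06 and 0.07.

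Glutathione conjugates leave cells through ABC transporters and are then trimmed to mercapturates. Of 5 measured exporter genes (median -0.39), Abcc3 was higher, with 249 counts in the shcircSmad5 library and 51 in the empty vector library, 4.78-fold (3.53 to 6.60). Abcc1, the most abundant transporter on the list, had a log2 ratio of 0.29. Of 5 measured trimming enzymes (median -0.10), the aminopeptidase gene Anpep was 3.32-fold lower (2.35 to 4.76), with 44 counts in the shcircSmad5 library and 143 in the empty vector library. No other gene of these 2 lists was called, beside 6.24% lower and 8.43% higher over all genes.

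None of the 11 genes for NRF2, its partners and its repressors passed the size rule, and their median log2 ratio was -0.06. Nfe2l2, which encodes NRF2, had 6422 counts in the shcircSmad5 library and 9359 in the empty vector library, a log2 ratio of -0.57 (-0.62 to -0.53), the lowest of the list. Keap1, its repressor, had a log2 ratio of 0.06, and the genes of the list with the most counts over both libraries, Nfe2l1, Sqstm1 and Cul3, had -0.06, -0.26 and -0.04. Of 20 reported NRF2 targets outside the glutathione genes (median -0.33), 16 had ratios below 1, 3 were called lower and none higher. Over all genes, 6973 of 13596 had ratios below 1 and 6.24% were called lower. The called genes were the dehydrogenase gene Aldh3a1 (9.31-fold lower, 6.78 to 13.1) and the carbonyl reductase genes Cbr3 (4.98-fold lower, 3.19 to 8.08) and Cbr1 (2.01-fold lower, 1.72 to 2.34). Nqo1, often used as a marker of NRF2 activity, had 84 counts in the shcircSmad5 library and 90 in the empty vector library. Its log2 ratio was -0.13 (-0.58 to 0.32). Among uncalled targets with more counts, named after their values were seen, G6pdx (-0.99) and Hmox1 (-0.96) fell just short of the 2-fold limit. Ftl1 was at -0.81, Me1 at -0.76, and Prdx1 and Pgd at -0.69. The 4 targets with ratios above 1 reached at most 0.49 (Fth1).

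The aryl hydrocarbon receptor also controls some of these genes. Its gene Ahr had 314 counts in the shcircSmad5 library and 621 in the empty vector library, 2.02-fold lower (1.76 to 2.32), at the very limit of the size rule as was Cbr1. Of 9 measured genes in this list (median -0.08), Ahr and Aldh3a1 were called lower and none higher. Among the other target genes, Cyp1a1, Tiparp and Ugt1a6a had log2 ratios of 0.97, 0.39 and 0.37. Those of Cyp1b1, Nqo1 and Ahrr were -0.08, -0.13 and -0.43. Cyp1a1, Ugt1a6a and Ahrr had 25 counts or fewer in each library. Of 7 measured genes for other conjugating enzymes (median 0.13), Ugt1a1 was higher on 21 counts in the shcircSmad5 library and 5 in the empty vector library (4.11-fold, 1.51 to 14.0). It shares exons with the other Ugt1a genes, so its count is uncertain. Both of these lists stand beside 6.24% called lower and 8.43% called higher over all genes.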

How the data were processed

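Per the labels' protocols, total RNA was depleted of ribosomal RNA and made into strand-specific libraries. The submitters' processing notes name GRCm38 and GRCh38 as builds and HTSeq 0.13.5 and HISAT2 as tools, with no role given. The authors deposited a raw read count and an FPKM value per gene and library. The deposited FPKM equals the count per column total and exon length: the implied length was whole within 0.001 bases for 100.0% of genes above 0, and it matched GENCODE M21 for all 10 members. Columns were matched by name, with 0 left over.

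Counts were scaled by TMM (edgeR 4.0.16, R 4.3.3). Intervals are exact Clopper-Pearson intervals of a gene's split between the libraries, and exact Poisson intervals for levels. A 0 was set to a floor of 3 counts. Members, gene lists and tests were chosen with earlier results of these data known. Named are all members, other transferase genes with at least 20 counts, up to 4 genes past the rule (or the 3 most abundant) per list, and neighbours past the rule; other genes (such as Gsr, Slc7a11, Nfe2l2, Keap1, Nqo1, Gpx1 and Gpx4) were named after their values were seen. Windows and coding sequences came from GENCODE M21, aligned with Biopython 1.88. No protein sequences were used here. The alternatives tried included DESeq2 1.42.0 size factors.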

Additional observations from a re-analysis of the deposited data

How the results depend on the processing

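The 4 lower and 2 higher calls among the members held under 5 other scalings, with each chromosome centred at its median and at a limit of 3-fold. With no count minimum or at a limit of 1.5-fold, calls can only be added, and none was added among the members. With a minimum of 100 counts, 5 members were left, of which 2 remained lower (Gsta1 and Gsta4) and 0 higher. The calls of Gsta2, Gstm1, Gstm2 and Gstk1 rest on fewer counts. The ratios of the 6 called members kept their direction under the 8 alternatives for single ratios. Of 72 such values over 9 members, 16 lay outside the counting interval, all for Gsta4 (-1.80 to -1.61), Gsto1 (-0.50 to -0.28) and Gstp1. Uncalled Gstp1 (-0.14 to 0.08) and Gstm5 (-0.17 to 0.04) changed sign between scalings. On the log2(FPKM + 0.1) scale Gsta2 was at -2.71, Gstm1 at -2.83 and Gstk1 at 2.76, over 1.5 times smaller as folds than with TMM-scaled counts. Over all genes, 463 of 10872 were lower and 439 higher at the minimum of 100 counts, beside 848 and 1146 of 13596 at 20 counts. Of the same 13596 genes, 1753 were lower and 1892 higher at 1.5-fold, and 422 and 591 at 3-fold. The median of the members, -0.36, is the ratio of Gsto1. It was -0.29 with total counts, with upper quartile scaling and with log2(FPKM + 0.1), -0.28 with totals that leave out mitochondrial genes and the top 20 genes, -0.31 with TMM on protein-coding genes, and -0.50 with chromosomes centred. The mean in its place was -0.62. With Gsta1 and Gsta2 summed, or with Gm3776 and Gm10639 added (chosen after seeing the data), 3 of 9 units were lower and 2 higher. No paired analysis was possible because each group has 1 library, and for the same reason no library could be left out.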
